A study of Mus musculus with 6 samples.

Results

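Glycolysis and hypoxia-response genes were followed in mouse hepatic stellate cells, which surround the liver's sinusoids and store vitamin A, after a short rise in cyclic AMP. The 35 genes were taken by symbol from a table of 24940 genes, and a row was found for each of the 35. They comprise 23 genes of glycolysis and its control, from hexokinase to lactate dehydrogenase with the PFK-2/FBPase-2 enzymes and 2 pyruvate dehydrogenase kinases, and 12 genes of the response to low oxygen. Of the 35, 32 passed the filter on low counts and were tested; Pfkfb1, Aldoc and Car9 were not. No measured value entered the choice of the genes, although it was made with earlier results of these data known.

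RNA was sequenced from primary hepatic stellate cells of female wild-type mice of the strain the labels give as C57BL6/JBomTac. The cells had been isolated 2 days before. In 3 samples (forskolin A, B and C) 5 µM forskolin was put into the medium already on the cells, and 3 samples (DMSO A, B and C) received an equal volume of the solvent DMSO; both groups were lysed in their plates 3 h later. Forskolin is a plant diterpene that switches on adenylyl cyclase and thereby raises cyclic AMP with no receptor ligand. Neither group was labelled with a change of oxygen or glucose, and the labels give no age for the mice. Nothing in the labels ties a letter to a mouse, an isolation or a culture day, so the spread within a group, on which every p below rests, may be technical only.

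Glycolysis turns glucose into pyruvate. Its flux is set largely at hexokinase, which traps glucose as glucose 6-phosphate, at phosphofructokinase-1 and at pyruvate kinase. The PFK-2/FBPase-2 enzymes make and break down fructose 2,6-bisphosphate, the main activator of phosphofructokinase-1. Lactate dehydrogenase returns NAD+ by reducing pyruvate to lactate, and pyruvate dehydrogenase kinases hold pyruvate back from the mitochondria. The hypoxia-inducible factors (HIFs) join both sets: their alpha subunits, HIF-1 alpha (Hif1a) and HIF-2 alpha (Epas1), are hydroxylated by prolyl hydroxylases of the Egln family in the presence of oxygen, bound by the VHL protein and degraded. When oxygen is low they accumulate and switch on many glycolytic genes together with genes such as Adm, Bnip3 and Car9. Since this control acts on the protein, the alpha subunits' transcript levels do not report HIF activity. Stellate cells are known to become more glycolytic when they turn into myofibroblasts.

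Column totals ran from 2770629 to 10607997 counts, and both C libraries, at 2770629 and 3025990, were the shallowest. Correlations of log2-scaled levels across genes were 0.972 between DMSO A and B and 0.980 between forskolin A and B, against 0.925 to 0.930 for pairs with a C library; results are therefore given with and without both C libraries. All 6 tested cyclic AMP target genes rose, Nr4a1 from 41.6 ± 0.839 to 455 ± 54.9 CPM (the count scaled to library size, as in all CPM values here; mean ± SD, n = 3 per group) and Crem from 13.1 ± 1.20 to 150 ± 19.5 CPM. The 12 stellate cell markers, among them desmin, reelin and Pdgfrb, had counts in every library and summed to between 2046 and 2283 CPM. At an adjusted p under 0.05 by edgeR, 1 of the 12 rose and 0 fell, beside 2.22% and 0.572% of all tested genes. The riser was Hand2, from 46.9 ± 12.5 to 96.5 ± 10.3 CPM (adjusted p = 0.0152). Without both C libraries 3 of the 12 rose and 0 fell, beside 5.86% and 3.9% of all tested genes. Summed markers of other cells stayed at 4.91 to 20.03 CPM for hepatocytes, 14.4 to 21.6 for Kupffer cells, 6.96 to 16.5 for endothelial cells, 8.66 to 43.9 for cholangiocytes and 1.18 to 5.41 for lymphocytes. Of these, the cholangiocyte sum was highest in forskolin A and B, at 43.9 and 32.9 CPM, against 19.8, 12.8 and 12.1 CPM in DMSO A, B and C and 8.66 CPM in forskolin C; it rests on 2 to 4 of 5 listed markers with a count, and its part in the results was not tested.

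Forskolin raised 3 of the 32 tested genes, Hk2, Pfkfb4 and Ndrg1, and lowered 0, while 29 did not pass. The first encodes hexokinase 2, the inducible hexokinase; the second is a PFK-2/FBPase-2 enzyme known as a HIF target; the third is a stress- and hypoxia-induced gene. A call means an adjusted p under 0.05 from edgeR's quasi-likelihood test, with the Benjamini-Hochberg adjustment over the 12233 genes tested. Of all these genes 2.22% were called higher and 0.572% lower. At an unadjusted p under 0.05 there were 7 of the 32, namely Hk2, Pfkfb2, Pfkfb4, Ldha, Epas1 and Ndrg1 with higher values and Adm with lower ones. Over all 12233 tested genes, 1477 had an unadjusted p under 0.05. Limma-voom, DESeq2 and edgeR's likelihood ratio test also called 0 of the 32 lower, and limma-voom with sample quality weights called 1, Adm. The median log2 change of the 32 was 0.07, with 23 positive and 9 negative values. Over all tested genes the median was 0.005, with 6211 positive and 6022 negative values.

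Without both C libraries, where 5.86% of 12597 tested genes were called higher and 3.9% lower, 6 of the 32 were called higher and 1 lower. Ldha, Epas1 and Tpi1 joined the 3 risers there, and Adm was the 1 lower gene. In the 6 libraries, the 3 forskolin values lay above the 3 DMSO values for 5 of the 32 genes (Hk2, Pfkfb4, Ldha, Epas1 and Ndrg1) and below them for 2 (Pfkp and Adm). Over all tested genes these shares were 10.7% and 9.46%. The 3 calls rest on few libraries: 0 were left without DMSO B or without forskolin A, 1 (Hk2) without DMSO A or DMSO C, 2 (Hk2 and Ndrg1) without forskolin B, and 3 without forskolin C.

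**Figure D1:**
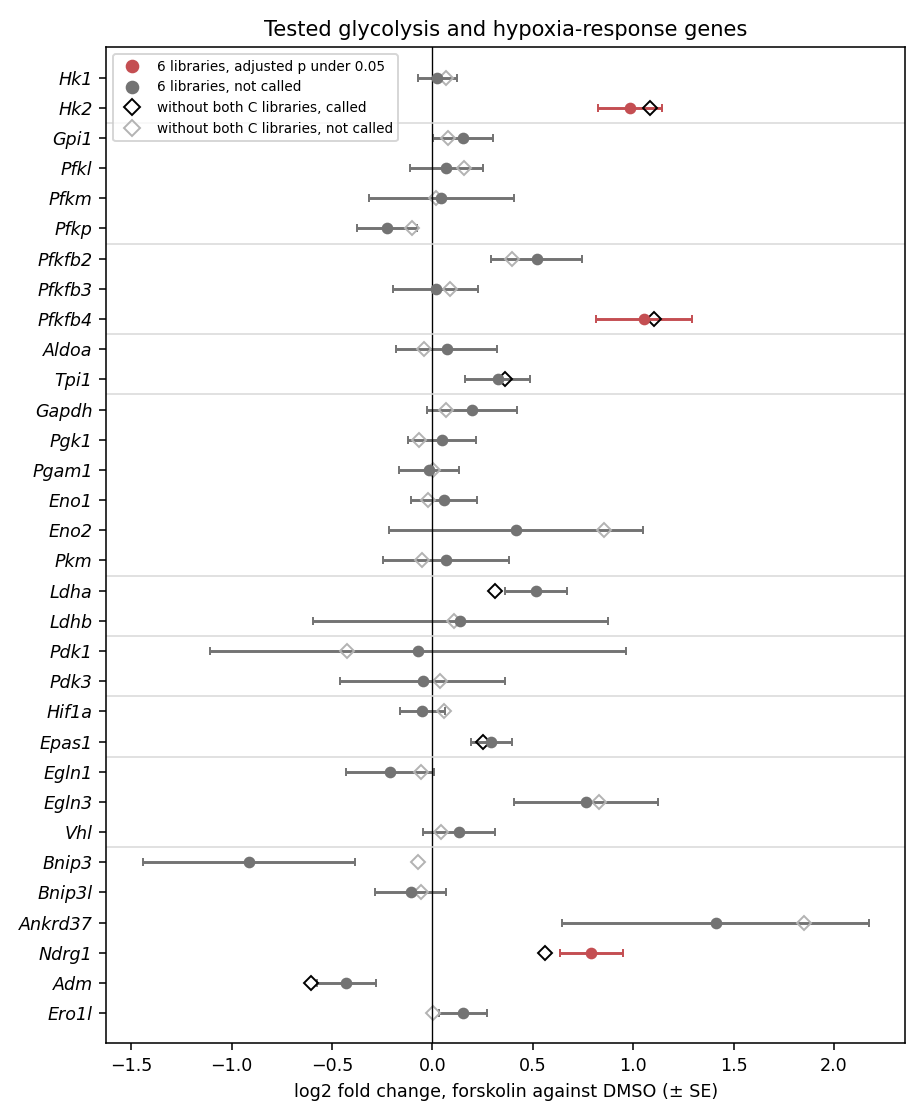
Log2 fold change of forskolin against DMSO for the 32 tested genes, grouped by role; points with bars are the 6-library estimate ± SE and diamonds the estimate without both C libraries. Red points mark the 3 genes with an adjusted p under 0.05 (Hk2, Pfkfb4 and Ndrg1), and black diamonds the 7 that pass without the C libraries, where Adm is the single gene on the negative side.

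The sequence before the start site is shown for 4 genes, because Hk2 and Pfkfb4 are the called genes of the glycolytic set, Ldha was called in 6 of 20 alternative fits and Adm was the gene called lower in 4 of them. Each run holds 250 bases, 5′ to 3′ on the gene's strand, ending at the base before the start, from RefSeq's table for GRCm38.p6, the assembly also named mm10. Capitals mark ACGTG and GCGTG, the core letters that HIFs bind, and TGACG, the first 5 letters of the cyclic AMP response element TGACGTCA, on either strand; those on the opposite strand appear as their reverse complement. The Hk2 window lies at chr6:82774455-82774704 on the minus strand, that of Pfkfb4 at chr9:108991652-108991901, that of Ldha at chr7:46845554-46845803 and that of Adm at chr7:110627407-110627656, the last 3 on the plus strand.
Hk2: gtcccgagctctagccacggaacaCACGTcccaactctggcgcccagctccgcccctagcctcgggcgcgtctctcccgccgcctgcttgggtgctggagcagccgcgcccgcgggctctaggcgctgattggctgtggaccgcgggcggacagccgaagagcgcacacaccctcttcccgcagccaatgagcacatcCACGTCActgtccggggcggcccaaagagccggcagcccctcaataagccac
Pfkfb4: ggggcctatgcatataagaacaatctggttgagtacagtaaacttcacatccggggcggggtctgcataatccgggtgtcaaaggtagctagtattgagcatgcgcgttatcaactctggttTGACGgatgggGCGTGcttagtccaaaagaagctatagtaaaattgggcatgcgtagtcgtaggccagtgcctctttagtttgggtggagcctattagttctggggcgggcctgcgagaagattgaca
Ldha: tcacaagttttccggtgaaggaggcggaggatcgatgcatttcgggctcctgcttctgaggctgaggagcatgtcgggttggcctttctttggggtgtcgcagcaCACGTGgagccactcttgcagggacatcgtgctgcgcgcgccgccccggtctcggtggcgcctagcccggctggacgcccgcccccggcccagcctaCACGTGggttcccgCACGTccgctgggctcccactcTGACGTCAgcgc
Adm: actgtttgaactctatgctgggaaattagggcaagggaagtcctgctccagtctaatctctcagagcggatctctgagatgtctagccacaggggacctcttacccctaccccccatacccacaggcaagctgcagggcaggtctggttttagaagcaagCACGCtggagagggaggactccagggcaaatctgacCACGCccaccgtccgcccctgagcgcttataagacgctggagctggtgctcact

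Matches were sought in 300 bases, from 250 before the start to 50 from the start on, with the start base counted as 0. In Hk2, ACGTG lay on the opposite strand at -226 to -222 and at -52 to -48, and TGACG on that strand at -50 to -46, so that the latter pair shares 3 bases. Pfkfb4 held TGACG at -128 to -124 and GCGTG at -117 to -113, both on its own strand. In Ldha the full element TGACGTCA stood at -12 to -5, and CACGTG, which contains ACGTG on both strands, at -145 to -140 and at -48 to -43. Ldha was the only 1 of the 32 genes with a window to hold TGACGTCA, which 1.79% of all 32851 windows hold. Adm held GCGTG on the opposite strand at -90 to -86 and at -54 to -50, and no TGACG.

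Windows were found for 32 of the 35 genes; Epas1, Bnip3l and Ndrg1 had none. ACGTG or GCGTG stood in 26 of these 32 (81.2%) and in 43.8% of all windows, and TGACG in 7 (21.9%) and in 20.8%. CACGTG stood in 5 of the 32, against 7.15% of all windows. The genes' windows had a median GC content of 64.0%, beside 52.7% over all windows, and the part of base composition in these shares was not tested. Matches were not limited to genes that changed: Hk1 held 5 matches to the HIF core letters, Pfkp 4 and Ankrd37 4. A match describes letters only, and binding was not measured.

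Hexokinase 1 and hexokinase 2 catalyse the same step, the first as the widely expressed form. Hk2 (mm10, chromosome 6, 82725027 to 82774454) stood at 51.0, 47.8 and 46.1 CPM in DMSO A, B and C and at 104, 106 and 74.6 CPM in forskolin A, B and C. Every forskolin library exceeded every DMSO library, and forskolin C was the lowest of its group. The log2 change was 0.98 ± 0.16 (SE, adjusted p = 0.00708), a 1.98-fold rise. An approximate 95% interval, with a normal quantile as for those below, ran from 0.67 to 1.30 on the log2 scale. The adjusted p of Hk2 was 0.0573 without DMSO B and 0.0582 without forskolin A. The change itself stayed between 0.89 and 1.12 over the 20 alternatives.

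Hk1 was at 205, 199 and 212 CPM in DMSO and 217, 209 and 199 CPM with forskolin, so the groups overlapped. Its log2 change of 0.02 ± 0.10 (adjusted p = 0.974) turned negative with upper quartile scaling (-0.0068), with library totals (-0.011) and without forskolin A (-0.0043). Compared per length, Hk2 made up 15.1 ± 0.881% of the counts of both genes in DMSO and 25.4 ± 2.99% with forskolin (n = 3 per group). The forskolin libraries, at 26.5, 27.6 and 22.0%, all lay above the DMSO libraries at 15.8, 15.3 and 14.1%. An exact permutation test gave p = 0.1, the smallest that 3 against 3 libraries can give; 21 such shares over 8 enzyme or subunit families were compared and the adjusted p was 0.21. Hk1 remained the more abundant of the pair in all 6 libraries.

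**Figure D2:**
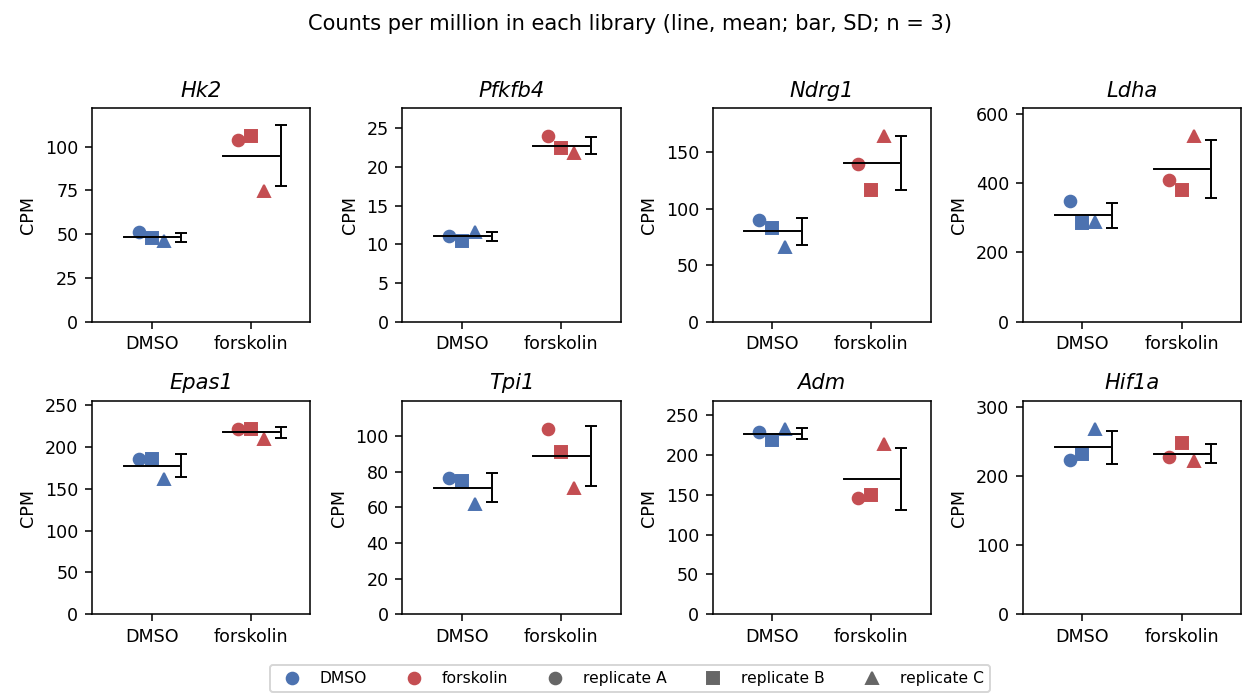
CPM (linear axis from 0) of 8 genes in each of the 6 libraries, with the mean as a line and the SD as a bar. Hk2, Pfkfb4, Ndrg1, Ldha and Epas1 show no overlap between forskolin and DMSO, with higher forskolin values; Adm shows none with lower values, while forskolin C lies near the DMSO level at 215 CPM; Tpi1 and Hif1a overlap.

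The PFK-2/FBPase-2 genes differ in the balance of their kinase and phosphatase activities. Pfkfb4 (mm10, chromosome 9, 108991902 to 109032225) was low but even, at 11.1, 10.4 and 11.5 CPM in DMSO and 24.0, 22.5 and 21.8 CPM with forskolin. Both groups were tight and far apart. The log2 change was 1.05 ± 0.24 (adjusted p = 0.0447; 2.08-fold, 95% interval 0.59 to 1.52 on the log2 scale). This call lay at the threshold: the adjusted p was 0.0718 with library totals as the scaling and 0.175, 0.204 and 0.0673 when DMSO A, B or C was left out. Leaving out forskolin A or B gave 0.259 and 0.198, and leaving out both C libraries 0.0049. Depth was 214 counts over the DMSO libraries and 528.5 over the forskolin libraries, and the row is anchored on a non-coding RefSeq transcript of the locus.

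Pfkfb3, the form with the strongest kinase activity and the most abundant of the 4 per length in DMSO, was at 42.0, 64.9 and 47.1 CPM in DMSO and 54.8, 60.4 and 39.3 CPM with forskolin. These values overlapped entirely. Pfkfb2, the form known from heart, was at 24.5, 30.2 and 33.2 against 39.7, 33.1 and 54.4 CPM. Its lowest forskolin value fell just under its highest DMSO value, and the log2 change of 0.52 ± 0.23 did not pass (adjusted p = 0.394). Pfkfb1, the liver form, had 12.5 counts over the DMSO libraries and 28.5 over the forskolin libraries and was not tested. Per length, Pfkfb4 took 18.4 ± 2.92% of the family's counts in DMSO and 28.2 ± 0.952% with forskolin, and Pfkfb3 took 56.1 ± 6.29% and 42.7 ± 9.09%. Neither share overlapped between the groups (exact permutation p = 0.1 each, adjusted 0.21).

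**Figure D3:**
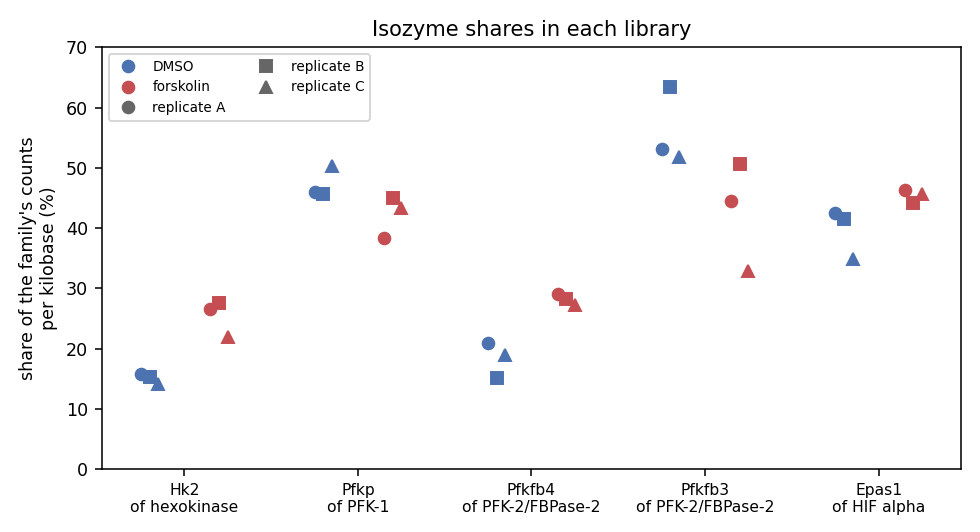
Share of 5 genes in the counts per kilobase of their family (percent, linear axis from 0), 1 point per library, coloured by group. The Hk2, Pfkfb4 and Epas1 shares are higher in all 3 forskolin libraries than in all 3 DMSO libraries, and the Pfkp and Pfkfb3 shares lower.

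Upper glycolysis otherwise gave 0 calls in 4 tested genes, with 0 at an unadjusted p under 0.05 by edgeR and 0 calls by DESeq2, limma-voom or the likelihood ratio test. Gpi1, glucose 6-phosphate isomerase, was at 422, 370 and 461 CPM in DMSO and 420, 418 and 555 CPM with forskolin, with the C library highest in each group. Its log2 change was 0.15 ± 0.15 (adjusted p = 0.818). Among phosphofructokinase-1 subunits, the platelet type Pfkp and the liver type Pfkl were about equally abundant per length, at 22.5 ± 0.320 and 22.3 ± 2.29 CPM per kilobase of transcript in DMSO. The muscle type Pfkm was lower, at 2.83 ± 0.579. Pfkp stood at 90.1, 88.9 and 91.5 CPM in DMSO and 79.0, 88.6 and 61.0 CPM with forskolin. All forskolin values were below all DMSO values, though forskolin B only just, and the log2 change of -0.23 ± 0.15 did not pass (adjusted p = 0.647). It was -0.10 without both C libraries. Pfkp overlaps Pitrm1 on the other strand between positions 6579874 and 6580149, where an unstranded library cannot separate the reads. Pitrm1 had a mean count of 1248, against 606 for Pfkp. Pfkl, at 73.2 to 89.7 CPM in DMSO and 62.6 to 105 CPM with forskolin, and Pfkm, at 6.42 to 9.72 and 7.62 to 8.96 CPM, overlapped.

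Aldolase A, the cleaving enzyme, was at 631, 531 and 867 CPM in DMSO and 589, 543 and 1000 CPM with forskolin. The C libraries stood well above A and B in both groups, and the groups overlapped. Aldoc, the brain form, had 0.5 counts over the DMSO libraries and 4 over the forskolin libraries, so Aldoa made up at least 99.96% of the pair in every library. Tpi1, triose phosphate isomerase, was at 76.1, 75.0 and 61.7 CPM in DMSO and 104, 90.9 and 70.7 CPM with forskolin. The C library was the lowest of each group for this gene. Forskolin C lay below DMSO A and B, and the log2 change of 0.33 ± 0.16 did not pass (adjusted p = 0.489); without both C libraries it was 0.36 ± 0.11 and was called (adjusted p = 0.0428).

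The lower pathway, with Pkm, the most abundant of the 35 genes per length, gave 0 calls in 6 tested genes, with 0 at an unadjusted p under 0.05 by edgeR and 0 by DESeq2, limma-voom or the likelihood ratio test. Pkm, pyruvate kinase, was at 1232, 1012 and 1912 CPM in DMSO and 1130, 1042 and 2187 CPM with forskolin. Gapdh was at 329, 280 and 424 CPM in DMSO and 330, 310 and 546 CPM with forskolin. For both genes the C libraries were the highest of their group by a wide margin. The log2 change of Pkm, 0.07 ± 0.31 (adjusted p = 0.977), was -0.34 without forskolin C, -0.11 without DMSO B and -0.05 without both C libraries. That of Gapdh, 0.20 ± 0.22 (adjusted p = 0.857), was -0.09 without forskolin C and 0.07 without both C libraries. Gapdh is often used as a reference gene, and here its values spread over 280 to 546 CPM.

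The other lower genes also overlapped between the groups. Pgk1, phosphoglycerate kinase, ranged from 145 to 186 CPM in DMSO and from 142 to 219 CPM with forskolin, and Pgam1, phosphoglycerate mutase, from 53.6 to 62.4 and from 50.6 to 61.2 CPM. Eno1 ranged from 286 to 376 and from 297 to 427 CPM. A row named Eno1b lies inside the Eno1 span on the same strand with a mean count of 2185, against 2215 for Eno1, so how reads were divided between the rows is uncertain. Eno2, the neuronal enolase, had 2.23 to 4.07 CPM in DMSO and 2.72 to 4.58 CPM with forskolin, at most 0.901% of the counts of Eno1 and Eno2 per length in any library.

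**Figure D4:**
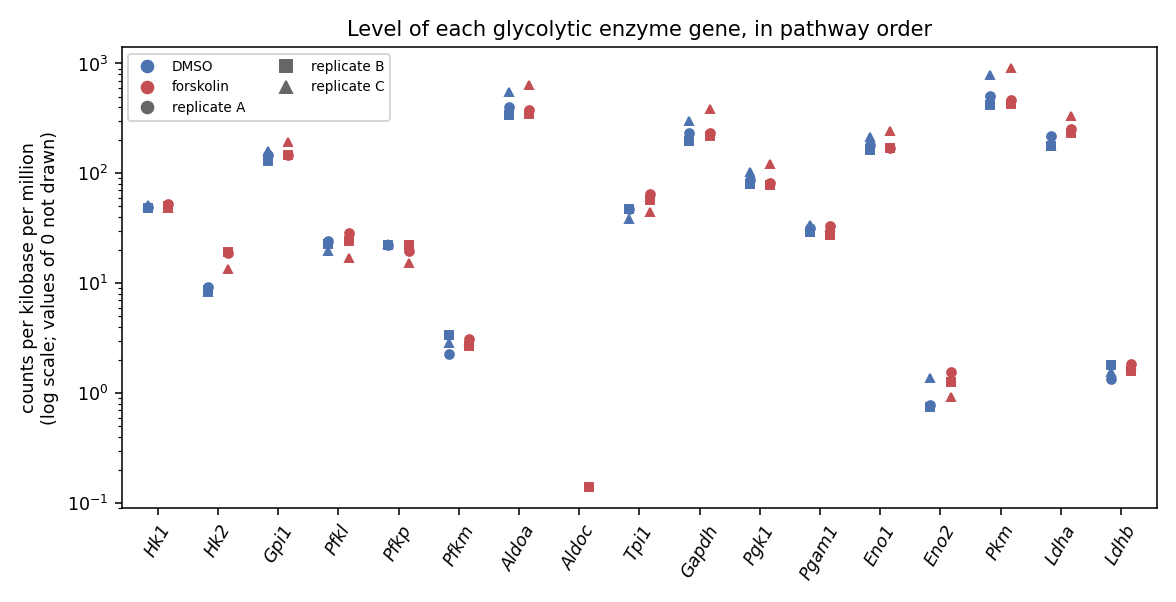
Level of 17 glycolytic enzyme genes in pathway order, as CPM per kilobase of transcript (log axis), 1 point per library. The isozymes of a step lie side by side: Aldoa, Eno1 and Ldha stand far above Aldoc, Eno2 and Ldhb, and for Pkm, Aldoa and Gapdh the triangles of the C libraries lie above the other points.

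Ordered per length in DMSO, Pkm led with 573 ± 194 CPM per kilobase, then Aldoa with 429 ± 109, Gapdh with 244 ± 51.9, Ldha with 190 ± 22.6, Eno1 with 186 ± 25.9 and Gpi1 with 146 ± 15.9. Across the DMSO libraries the ranges of Pkm and Aldoa overlapped, as did those of Gapdh, Ldha and Eno1. Within every single DMSO library, though, Pkm exceeded Aldoa, and Gapdh exceeded both Ldha and Eno1. Ldha exceeded Eno1 in DMSO A and B but not in DMSO C. Pgk1 followed at 90.2 ± 11.6, Hk1 at 49.6 ± 1.53, Tpi1 at 44.5 ± 5.04 and Pgam1 at 31.7 ± 2.40. Hk2 stood at 8.80 ± 0.459 and rose to 17.3 ± 3.19 with forskolin, still below Pgam1 there at 31.3 ± 3.17. Summed over the 23 glycolysis genes, the level was 1984, 1709 and 2498 CPM per kilobase in DMSO A, B and C and 1978, 1857 and 3017 in forskolin A, B and C. The sums overlapped between the groups and were highest in the C libraries.

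Counts of the densest transcripts differed between the C libraries and the deeper ones. Pkm had on average 3.57 counts per base of transcript, Aldoa 2.77, Gapdh 1.67, Ldha 1.59, Eno1 1.26 and Gpi1 1.04. The CPM of Pkm in library C over that in library B was 2.10 with forskolin and 1.89 in DMSO; for Aldoa it was 1.84 and 1.63, and for Gapdh 1.76 and 1.51. Over the 438 tested genes with at least 1 count per base the median ratio was 1.47 with forskolin and 1.35 in DMSO. Over the 1832 genes with 0.01 to 0.03 counts per base it was 0.787 and 0.863. How duplicate reads were treated is not given in the sources used here, and its part in these ratios was not tested. Over the 4 A and B libraries alone, Pkm spanned 1012 to 1232 CPM, Aldoa 531 to 631, Eno1 286 to 319 and Gpi1 370 to 422.

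**Figure D5:**
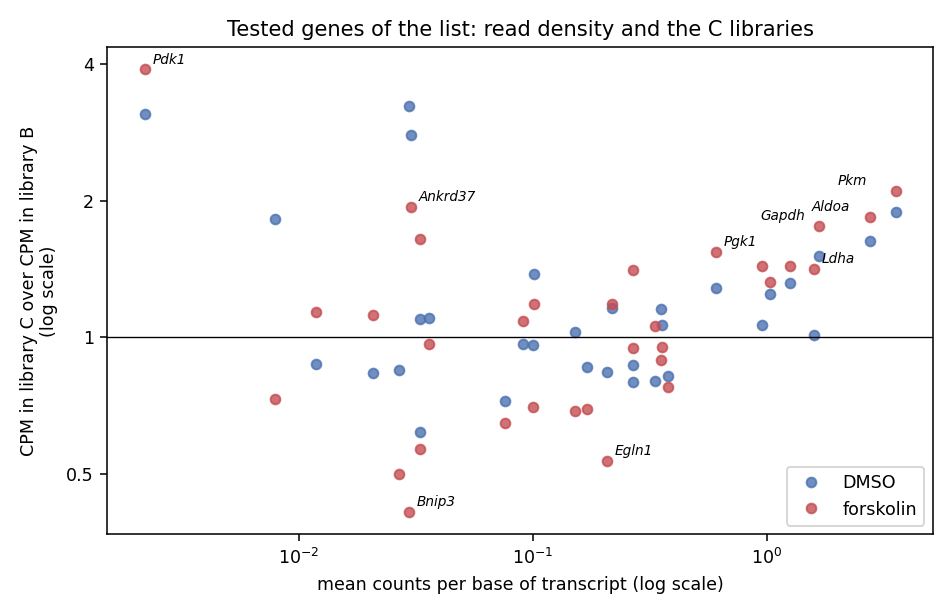
Ratio of CPM in library C to CPM in library B (log axis) against the mean counts per base of transcript (log axis) for the 32 tested genes, 1 point per gene and group. The densest genes, to the right, lie above a ratio of 1, up to 2.10 for Pkm with forskolin; at low density the points scatter on both sides, with Bnip3 at 0.413 with forskolin and 3.23 in DMSO.

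Ldha, the muscle-type subunit of lactate dehydrogenase (mm10, chromosome 7, 46845804 to 46855627), was at 349, 285 and 288 CPM in DMSO and 409, 379 and 536 CPM with forskolin. Every forskolin value exceeded every DMSO value, and forskolin C was the highest. The log2 change was 0.52 ± 0.15 and did not pass (adjusted p = 0.148); over the 20 alternatives the adjusted p ran from 0.00721 to 0.470 and 6 of them called it. Without both C libraries the change was smaller but tighter, at 0.31 ± 0.09 (adjusted p = 0.0249). DESeq2 gave an adjusted p of 0.0490 and the likelihood ratio test 0.0450. Ldha is among the dense genes, and its ratio of C to B was 1.41 with forskolin and 1.01 in DMSO. Ldhb, the heart-type subunit, had 1.75 to 2.33 CPM in DMSO and 2.04 to 2.40 CPM with forskolin, at most 1.01% of the pair per length in any library.

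Of the pyruvate dehydrogenase kinases in the set, Pdk3 was at 8.17, 7.19 and 6.10 CPM in DMSO and 6.46, 9.29 and 4.66 CPM with forskolin, and Pdk1, a textbook HIF-1 target, at 1.17, 1.42 and 4.41 against 0.625, 1.30 and 5.05 CPM. Both overlapped, and Pdk1 rested on 5.5 to 14.5 counts per library. Their relative Pdk4, the form raised by fasting and not one of the 35 genes, fell: it was at 47.3, 40.1 and 48.1 CPM in DMSO and 24.0, 20.4 and 17.5 CPM with forskolin (-1.11 ± 0.20 on the log2 scale, adjusted p = 0.0121). The call was lost without DMSO A (adjusted p = 0.0817) and without forskolin B (0.0769). Pdk4 held 69.5 ± 1.11% of the 4 kinases' counts per length in DMSO and 51.8 ± 5.04% with forskolin (exact permutation p = 0.1).

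The HIF alpha subunits were both well expressed. Hif1a was at 223, 232 and 269 CPM in DMSO and 228, 248 and 222 CPM with forskolin, an overlap throughout. Its log2 change of -0.05 ± 0.11 (adjusted p = 0.940) was 0.06 without both C libraries, 0.03 without DMSO C and 0.01 with sample quality weights. Epas1 (mm10, chromosome 17, 86753864 to 86833410) was at 186, 185 and 161 CPM in DMSO and 222, 221 and 210 CPM with forskolin. The groups did not overlap and the forskolin libraries were close to each other. The log2 change of 0.29 ± 0.10 did not pass (adjusted p = 0.240), and without both C libraries it was 0.25 ± 0.07 (adjusted p = 0.0366). Per length, Epas1 took 39.6 ± 4.18% of the counts of both subunits in DMSO and 45.4 ± 1.09% with forskolin (exact permutation p = 0.1, adjusted 0.21).

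The oxygen-sensing side gave 0 calls in 3 tested genes by edgeR, limma-voom, DESeq2 or the likelihood ratio test, with 0 at an unadjusted p under 0.05 by edgeR. Egln1 (PHD2), the main HIF prolyl hydroxylase, was at 108, 110 and 92.5 CPM in DMSO and 110, 100 and 53.6 CPM with forskolin, with forskolin C far below the other 5. Egln3 (PHD3), itself a HIF target, was at 8.46, 9.82 and 6.10 CPM in DMSO and 17.7, 15.1 and 8.55 CPM with forskolin. The C library was the lowest in each group, forskolin C fell within the DMSO range, and the log2 change of 0.76 ± 0.36 did not pass (adjusted p = 0.442). Vhl, the substrate receptor of the ligase that marks HIF alpha for degradation, was at 33.4, 34.0 and 32.9 CPM in DMSO and 31.7, 37.9 and 41.2 CPM with forskolin (0.13 ± 0.18 on the log2 scale, adjusted p = 0.880).

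Among the 7 HIF target genes of the list, 1 rose, 0 fell, 5 did not pass and Car9 was not tested. Ndrg1 (mm10, chromosome 15, 66929318 to 66969641) was at 90.0, 83.1 and 66.4 CPM in DMSO and 140, 116 and 164 CPM with forskolin. Forskolin values were all higher, and the C libraries were the lowest DMSO and the highest forskolin value, so that they widened the difference. The log2 change was 0.79 ± 0.16 (adjusted p = 0.0245; 1.73-fold, 95% interval 0.48 to 1.10 on the log2 scale) and 0.56 ± 0.11 without both C libraries. Leaving out 1 library ended the call in 4 cases: the adjusted p was 0.0628, 0.110 and 0.0681 on leaving out DMSO A, B or C and 0.108 on leaving out forskolin A.

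Adm, which encodes the vasodilator peptide adrenomedullin, pointed the other way (mm10, chromosome 7, 110627657 to 110629820). It was at 229, 219 and 233 CPM in DMSO and 146, 150 and 215 CPM with forskolin. The DMSO libraries lay close together, forskolin A and B well below them, and forskolin C just below. The log2 change of -0.43 ± 0.15 did not pass (adjusted p = 0.232). It was called lower in 4 of the 20 alternatives. Without forskolin C the change was -0.62 (adjusted p = 0.00385), and without both C libraries -0.61 ± 0.08 (adjusted p = 1.18e-05). With all 6 libraries, limma-voom with sample quality weights gave -0.57 (adjusted p = 0.00187). Adm had 0.959 counts per base on average, and its ratio of C to B was 1.43 with forskolin and 1.06 in DMSO.

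Bnip3 and Bnip3l encode mitophagy receptors. Bnip3 was at 7.88, 5.87 and 19.0 CPM in DMSO and 5.52, 7.53 and 3.11 CPM with forskolin; DMSO C was the highest and forskolin C the lowest of all 6, and the log2 change of -0.92 ± 0.53 (adjusted p = 0.581) was -0.07 without both C libraries. Bnip3l stayed between 44.0 and 60.7 CPM in DMSO and between 43.0 and 52.9 CPM with forskolin. Ero1l, the endoplasmic reticulum oxidoreductase that drives disulfide formation, was at 207, 205 and 165 CPM in DMSO and 199, 217 and 229 CPM with forskolin (0.15 ± 0.12 on the log2 scale, adjusted p = 0.736).

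Ankrd37, a small ankyrin-repeat protein, was at 0.729, 1.82 and 5.08 CPM in DMSO and 4.58, 5.02 and 9.72 CPM with forskolin. DMSO C exceeded forskolin A and B, and the log2 change of 1.41 ± 0.76 did not pass (adjusted p = 0.536; range over the alternatives that tested it 0.95 to 2.24). Its 38.5 counts over the DMSO libraries and 123.5 over the forskolin libraries limit its precision. It overlaps Ufsp2 on the other strand only between positions 45996908 and 45996956, where an unstranded library cannot separate the reads. Car9, the membrane carbonic anhydrase used as a hypoxia marker, had 4.5 counts in DMSO A, 6 in forskolin B and 0 in the other 4 libraries, where up to 3 counts cannot be told from none.

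Other genes of the same pathways were read from lists chosen with the results known, and each is set beside the shares over all genes given above. Of 34 listed genes of glucose uptake, glycolysis and lactate transport outside the 35, 22 were tested and 0 were called by edgeR, DESeq2, limma-voom or the likelihood ratio test, with 1 at an unadjusted p under 0.05 by edgeR. That 1 was Slc2a1, the glucose transporter GLUT1, at 331, 311 and 308 CPM in DMSO and 383, 385 and 393 CPM with forskolin. The forskolin libraries were all higher, the log2 change was 0.29 ± 0.10 (adjusted p = 0.272), and without both C libraries it was 0.25 and called (adjusted p = 0.0286). Of 17 tested genes listed for pyruvate entry into mitochondria, its control and malate enzymes, 0 rose and 1, Pdk4, fell. Pdp1, a phosphatase that reactivates pyruvate dehydrogenase, was at 23.6, 22.1 and 20.3 CPM in DMSO and 38.3, 39.1 and 26.0 CPM with forskolin. The log2 change of 0.66 ± 0.22 did not pass (adjusted p = 0.208) but did without forskolin C (0.0434) and without both C libraries (0.00719); it is named after its values were seen. Of 21 tested genes of the pentose phosphate pathway, glycogen metabolism and gluconeogenesis, 0 were called by edgeR, DESeq2, limma-voom or the likelihood ratio test, with 2 at an unadjusted p under 0.05.

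The list of further HIF pathway and target genes outside the 35 was also chosen with the results known. Some of its genes are known to respond to other signals, and the part of HIF in their changes was not tested. Of 55 listed, 52 had a row and 44 were tested, with a median log2 change of 0.11. Of the 44, 6 rose, 0 fell and 38 did not pass, beside 2.22% higher and 0.572% lower over all tested genes. At an unadjusted p under 0.05 there were 9 of the 44, beside 1477 of all 12233. DESeq2, limma-voom and edgeR's likelihood ratio test each called 0 of the list lower. Without both C libraries 8 of 42 tested were called higher and 1 lower, beside 5.86% and 3.9% of all tested genes. Loxl2 (adjusted p = 0.00169 by edgeR) and Igfbp3 (0.0169) joined the 6 risers there and Wsb1 was the lower gene (0.0124). All 3 are named after their values were seen. Bhlhe40 (DEC1), a transcriptional repressor of the clock that is also known to respond to many signals, was at 45.2, 54.9 and 52.9 CPM in DMSO and 479, 448 and 511 CPM with forskolin (3.23 ± 0.13 on the log2 scale, adjusted p = 4.48e-07). Hilpda, a lipid droplet protein that inhibits the lipase ATGL, was at 25.2, 23.5 and 29.8 CPM in DMSO and 189, 167 and 187 CPM with forskolin (2.81 ± 0.14, adjusted p = 2.12e-06). Both groups of libraries were far apart for each gene. Vegfa, the angiogenic factor, was at 166, 164 and 204 CPM in DMSO and 463, 468 and 493 CPM with forskolin (1.42 ± 0.12). Ddit4 (REDD1), an inhibitor of mTORC1, was at 68.3, 70.7 and 117 CPM in DMSO and 209, 225 and 210 CPM with forskolin (1.36 ± 0.19, adjusted p = 0.00255).

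The other 2 risers of that list, Dusp1 and Trf, are named after their values were seen. Dusp1, a phosphatase of MAP kinases and a textbook cyclic AMP target, went from 241 ± 34.8 to 573 ± 132 CPM (1.25 ± 0.18, n = 3 per group). Trf, the iron carrier transferrin, went from 16.7 ± 4.02 to 45.7 ± 9.52 CPM (1.44 ± 0.24); its adjusted p by edgeR was 0.0560 without DMSO B, 0.0622 without forskolin A and 0.0602 without forskolin B. The calls of Bhlhe40, Hilpda, Vegfa, Ddit4 and Dusp1 held in each of the 20 alternative fits. The difference between these 6 genes and the 35 was not tested.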

How the data were processed

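Per the submitters' processing notes, STAR, HOMER and the mm10 build were used, with no versions; no source used here gives the counting rule or the handling of duplicates. The authors deposited 1 table of estimated counts per gene over exons for 6 libraries, in steps of 0.5 (24.2% of values are not whole), with transcript lengths. The library kit keeps no strand information. Here the estimated values were rounded (ties to the even integer), genes kept by filterByExpr (12233), libraries scaled by TMM, and groups compared by edgeR 4.0.16's quasi-likelihood test in R 4.3.3. Single-gene adjusted p-values are edgeR's, Benjamini-Hochberg over all tested genes, called at 0.05, unless another tool is named. SE is the log2 change over the square root of F. The 95% intervals take a normal quantile of this SE and are narrower than intervals from the F test itself. CPM uses TMM-scaled totals, except for summed markers, which use column totals. Levels between genes are counts per kilobase of deposited length, scaled as CPM.

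The members and lists were chosen with earlier results of these data known. All 35 genes are accounted for; values per library are given for called genes, genes called without both C libraries and the most abundant of each role, and in other lists for up to 4 called genes by p. Alternatives were RLE, upper quartile, library total and loess scaling, 3 other filters, DESeq2 1.42.0, limma 3.58.1 (voom, with and without quality weights), the likelihood ratio test, a block for the replicate letter, libraries left out, and ties rounded up. On simulated counts for 12233 genes, the test recovered 57.1% of 98 genes with a 2-fold and 85.4% of 96 with a 4-fold change, 0 in the wrong direction. The simulated counts were independent draws with the trended dispersion and lacked the shift of the C libraries. These shares may therefore not hold for the real libraries. A count of 3, the floor, equals 0.283 to 1.08 CPM; it covers counting error only. RefSeq promoter windows were matched by symbol and start.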

Additional observations from a re-analysis of the deposited data

How the results depend on the processing

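Over the 20 alternatives, 15 of the 32 tested members changed sign at least once, 0 of them called in the 6-library fit, and 25 members were called in no fit. Single changes were compared for the members with a stated change and for Slc2a1, Pdk4, Pdp1, Vegfa, Bhlhe40, Hilpda, Ddit4, Dusp1, Trf, Nr4a1 and Crem. Dld, Pdhx and Mpc1, named below with a change, were left out. Of the comparisons with an alternative, 554 kept direction and side of the threshold, 17 lost a call, 17 gained one and 11 changed sign. The genes called higher over the whole table numbered 463 with no filter, 409 by DESeq2, 595 with quality weights, 458 by the likelihood ratio test and 738 without both C libraries, against 272, and 162 to 372 with 1 library left out. Those called lower, 70, numbered 157, 144, 389, 190 and 491 under the same settings, 125 by limma-voom, and 21 to 113 with 1 library left out. Members called higher numbered 6 without both C libraries and 0 to 3 with 1 library left out; members called lower numbered 1 (Adm) with quality weights and without both C libraries, and 0 to 1 with 1 library left out.

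Sign changes were limited to members without a call. Hk1 was at -0.0068 with upper quartile factors, -0.011 with library totals and between -0.0043 and 0.057 with 1 library left out. Gapdh lay between -0.095 and 0.37, Pkm between -0.34 and 0.37 and Hif1a between -0.099 and 0.029 with 1 library left out. Pkm was at -0.055 with quality weights and -0.052 without both C libraries, and Hif1a at 0.012 and 0.057. The cause was not tested. The median change of all genes was -0.033 with library totals and -0.025 with upper quartile factors, against 0.005.

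The letters A, B and C were not taken as pairing the libraries, and no label ties them to a mouse, an isolation or a culture day. Deviations from the group means correlated at 0.0476 for the A libraries, 0.133 for B and 0.150 for C. Forskolin B and forskolin C each correlated best with the DMSO library of their own letter, while forskolin A correlated best with DMSO B (0.103). These correlations do not settle whether the letters pair the libraries. With the replicate letter as a block, 455 genes were called higher and 194 lower; 4 members were higher, Ldha with adjusted p = 0.0301 by edgeR being added, and 1 lower, Adm (0.0302). Depth limits Pfkfb1, Aldoc and Car9, which were not tested, and Pdk1, Ldhb, Eno2 and Ankrd37, whose SEs run from 0.63 to 1.04 on the log2 scale.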

Other observations

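The list for pyruvate entry into the mitochondria also holds its kinases and phosphatases and the malate enzymes. Of its 17 tested genes, 12 had a positive and 5 a negative log2 change, and edgeR called 1, Pdk4, lower. Over all tested genes, 6211 changes were positive and 6022 negative. Of the same 17, 7 (41.2%) had all 3 forskolin libraries above all 3 DMSO libraries, beside 10.7% of all tested genes, and 0 of these 7 passed by edgeR. They were Pdha1, Pdhb and Dlat, subunits of the pyruvate dehydrogenase complex, Mpc2, a subunit of the mitochondrial pyruvate carrier, the malate enzymes Me1 and Mdh2, and the phosphatase gene Pdp1. Other subunits overlapped between the groups: Dld (log2 change 0.03) and Pdhx (-0.20) of that complex, and Mpc1 (-0.04) of that carrier. Pdha1 went from 229 ± 12.8 to 264 ± 10.03 CPM, Dlat from 146 ± 14.2 to 166 ± 5.97 CPM and Mpc2 from 29.0 ± 1.76 to 39.1 ± 7.18 CPM (SDs over 3 libraries). The list's median log2 change was 0.16. These genes are named after their values were seen, and nothing is drawn from the count.

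Hif1an, the asparagine hydroxylase FIH that blocks the HIF transactivation domain, stood at 122 ± 6.26 CPM in DMSO against 100.2 ± 1.05 CPM under forskolin, with every forskolin library below every DMSO library, and did not pass by edgeR. Arnt, the partner subunit of the HIF alpha proteins, was at 103 ± 1.59 and 98.5 ± 14.3 CPM and overlapped. Both are also named after their values were seen.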
